A study of Mus musculus with 12 samples.

Results

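Triglyceride lipases and lipid droplet genes were examined in hearts of mice that lack Sdhaf4, an assembly factor of succinate dehydrogenase (complex II of the respiratory chain). The 9 genes were Pnpla2, Lipe, Mgll and Ces1d (lipases), Abhd5 and G0s2 (a co-activator and an inhibitor of Pnpla2) and Plin2, Plin4 and Plin5 (droplet coat proteins), found by gene name among the 43686 rows of the count table. They were selected on the KO against WT difference in these same counts, with earlier results known. That difference is therefore given for them as a description: no p-value is printed, and calls from the fit over all rows are only counted. Genes outside the 9 were listed with those results known too, so the adjusted p-values printed for them carry that limit. The hearts carrying the deletion are called KO (labelled Sdhaf4-/-; per the methods Sdhaf4 fl/fl with Ckmm-Cre) and the controls WT (labelled wild type; per the methods Sdhaf4 fl/fl littermates without Cre), with 6 ventricular wall libraries each. All came from mice labelled C57BL/6 (C57BL/6J per the methods) and 2 months old, and no agent was given to either group. The study's results give 6 weeks for the RNA-seq hearts. Its reporting summary names male mice for omics, at an age near the label's or younger. By the genotypes above, the floxed alleles are shared by both groups, and only KO carried Cre. The Ckmm promoter is active in cardiac and skeletal muscle, so other cell types of the ventricle are not expected to carry the deletion and skeletal muscle is.

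Heart muscle stores fatty acids as triglyceride in small cytosolic lipid droplets. Pnpla2 (ATGL), together with its co-activator Abhd5, removes the first fatty acid, Lipe (hormone-sensitive lipase) acts on the diglyceride and Mgll on the monoglyceride, while G0s2 inhibits Pnpla2. Perilipins coat the droplet and set the access of lipases to it, and Plin5 is the perilipin typical of oxidative tissue such as heart.

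Libraries held 23747014 to 27159228 counts in WT and 26542930 to 31393393 in KO, and the labels do not say that each library came from a separate mouse, so p-values measure the spread between these samples. Levels within a gene are given as CPM (reads scaled to library size, with TMM factors). Sdhaf4 itself stood at 14.3 to 30.3 CPM in WT and 2.25 to 2.73 CPM in KO. The summed level of 10 cardiomyocyte markers overlapped between groups (56880 to 64090 CPM in WT and 45590 to 65990 CPM in KO), although 2 of them were called higher and 5 lower. The sum of 10 fibroblast markers did not overlap (3068 to 3638 CPM in WT and 4099 to 6334 CPM in KO), with 8 called higher and 2 lower (all rows tested 25.6% and 25.5%) and none of the 10 at 0. In such bulk samples, fewer cells of a type and less RNA per cell cannot be told apart. The part of the fibroblast markers in the values below was not tested.

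All 9 members passed the filter on low counts. At an adjusted p under 0.05, 7 of them were called lower in KO, where 25.5% of the 17155 rows tested were, and 0 were called higher, where 25.6% of rows were. Mgll and Abhd5 were not called, although Mgll was without KO replicate 1 or 6 and by DESeq2, and Abhd5, as higher, without KO replicate 4. In 6 of the 9 genes every KO heart lay below every WT heart, a separation seen in 15.2% of rows, and in 0 genes did every KO heart lie above, against 14.9% of rows. Ces1d, Plin2 and Plin5 also passed the stricter rule (adjusted p under 0.005 and a log2 fold change under -1), as 4.87% of rows did. Since these genes were chosen by this contrast, nothing is read from the counts. Their median log2 fold change was -0.51, and that of all rows tested was 0.0022.

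**Figure D1:**
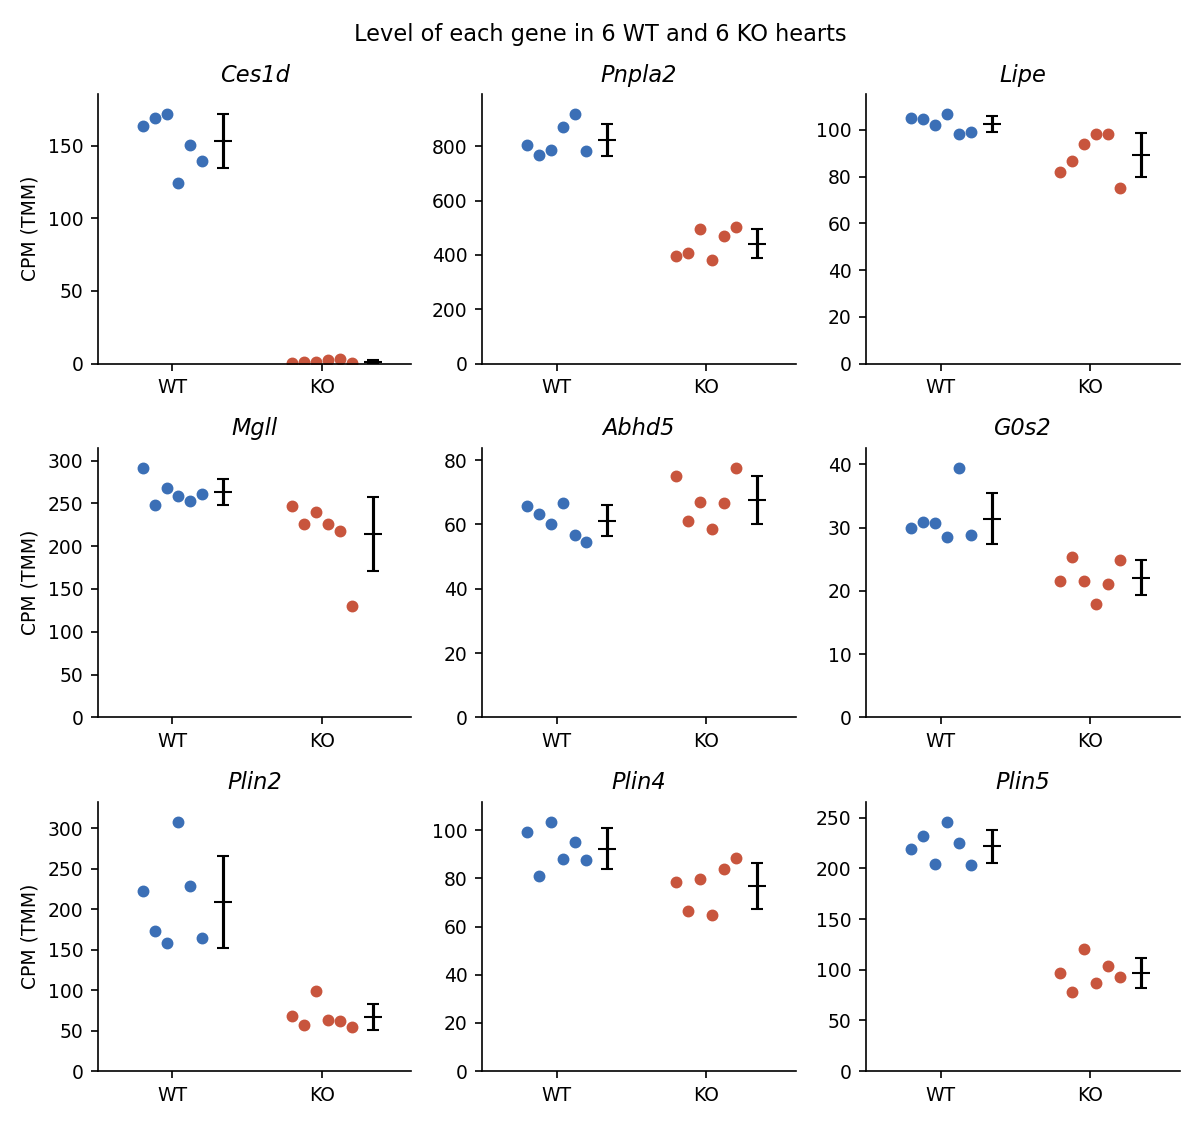
Level of each member in each heart, in CPM (vertical axis, from 0, scaled for each gene), with 6 WT and 6 KO hearts as points and the mean and SD of each group as a bar. Ces1d lay between 0.128 and 2.80 CPM in KO hearts and at 124 CPM or more in WT, while the points of Lipe, Plin4 and Abhd5 overlapped.

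Ces1d encodes a carboxylesterase of the endoplasmic reticulum with triglyceride hydrolase activity, known mainly from liver and adipose tissue. Its row lies at chr8:97963107-98001009 on the minus strand of C57BL/6NJ. It had the widest separation among the members. In WT it was measured at 124 CPM in the lowest heart, a median of 157 CPM and 172 CPM in the highest. In KO the lowest heart had 0.128 CPM, the median was 0.741 CPM and the highest 2.80 CPM. The lowest WT heart was thus 44.3-fold above the highest KO heart, and the fitted log2 fold change was -6.86 (SE 0.40, n = 6 per group). The KO hearts differed among themselves by 21.8-fold from lowest to highest. These values rest on 4, 21, 21, 80, 86 and 18 reads in KO replicates 1 to 6, and the exact 95% Poisson interval of the lowest, 0.035 to 0.329 CPM, does not reach those of replicates 4 and 5 (2.18 to 3.42 and 2.24 to 3.46 CPM). Such intervals cover counting error only.

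Ces1d lies in a cluster of similar Ces1 genes, whose reads a counting step could exchange. The other 7 Ces1 rows held 6 to 28 reads together in each WT heart and 3 to 21 in each KO heart, against 3127 to 4684 reads on Ces1d in WT. Of 19 other carboxylesterase names, 16 had a row, 6 of these were at 0 in every heart, and 2 passed the filter. Ces2e was the 1 called, at 0.562 ± 0.215 CPM (SD, n = 6) in WT and 1.30 ± 0.833 CPM in KO (log2 fold change 1.21, SE 0.40, adjusted p = 0.017 by edgeR), with overlapping groups, and it was not called without KO replicate 4. Markers of hepatocytes, which express Ces1d strongly, summed to 0.867 to 2.71 CPM in WT and 0.563 to 1.82 CPM in KO over 9 rows. Only 2 of these rows passed the filter, neither of them called, and the part of hepatocytes in the Ces1d value was not tested. For adipocytes, the 9 markers other than Cidea, Tusc5 and Mrap, among them Adipoq, Plin1, Retn and Lep, summed to 0.217 to 1.80 CPM in WT and 0.0331 to 1.75 CPM in KO. The 12 adipocyte markers with those 3, the only ones to pass the filter, summed to 49.3 to 62.7 CPM in WT and 71.3 to 82.4 CPM in KO without overlap. Of the 3, Cidea and Mrap were called higher, and their part in the values here was not tested.

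Pnpla2, the lipase of the first step, had the highest level per length of all members in both groups (chr7:151997661-152004877, plus strand, C57BL/6NJ). WT hearts ranged from 769 to 919 CPM (median 796) and KO hearts from 380 to 503 CPM (median 438). The groups did not overlap, and the log2 fold change was -0.90 (SE 0.08).

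Lipe (chr7:24645372-24666020, minus strand) and Mgll (chr6:92550290-92659173, plus strand), which act after Pnpla2, differed less. Lipe ranged from 98.2 to 107 CPM in WT (median 103) and from 75.2 to 98.4 CPM in KO (median 90.5), with a log2 fold change of -0.20 (SE 0.06). KO replicates 4 and 5, the highest KO hearts, reached into the WT range. Mgll ranged from 248 to 291 CPM in WT (median 260) and from 130 to 246 CPM in KO (median 226), with a log2 fold change of -0.30 (SE 0.12). Its groups did not overlap, but the lowest WT and highest KO hearts nearly met, and KO replicate 6 lay far below the other KO hearts. Without that heart the log2 fold change was -0.19.

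The makeup of the lipase transcripts within a heart differed between groups. Per length, in deposited FPKM (reads scaled by gene length and library size), Ces1d made up 16.3% to 22.6% of the summed Ces1d, Pnpla2, Lipe and Mgll level in WT and 0.0348% to 0.758% in KO. The share of Lipe was 6.51% to 7.48% in WT and 10.9% to 14.5% in KO. Pnpla2 held 54.2% to 60.4% in WT and 55.5% to 72.3% in KO, so its share overlapped. The sum of the 4 lipases was 893 to 941 FPKM in WT and 427 to 489 FPKM in KO.

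**Figure D2:**
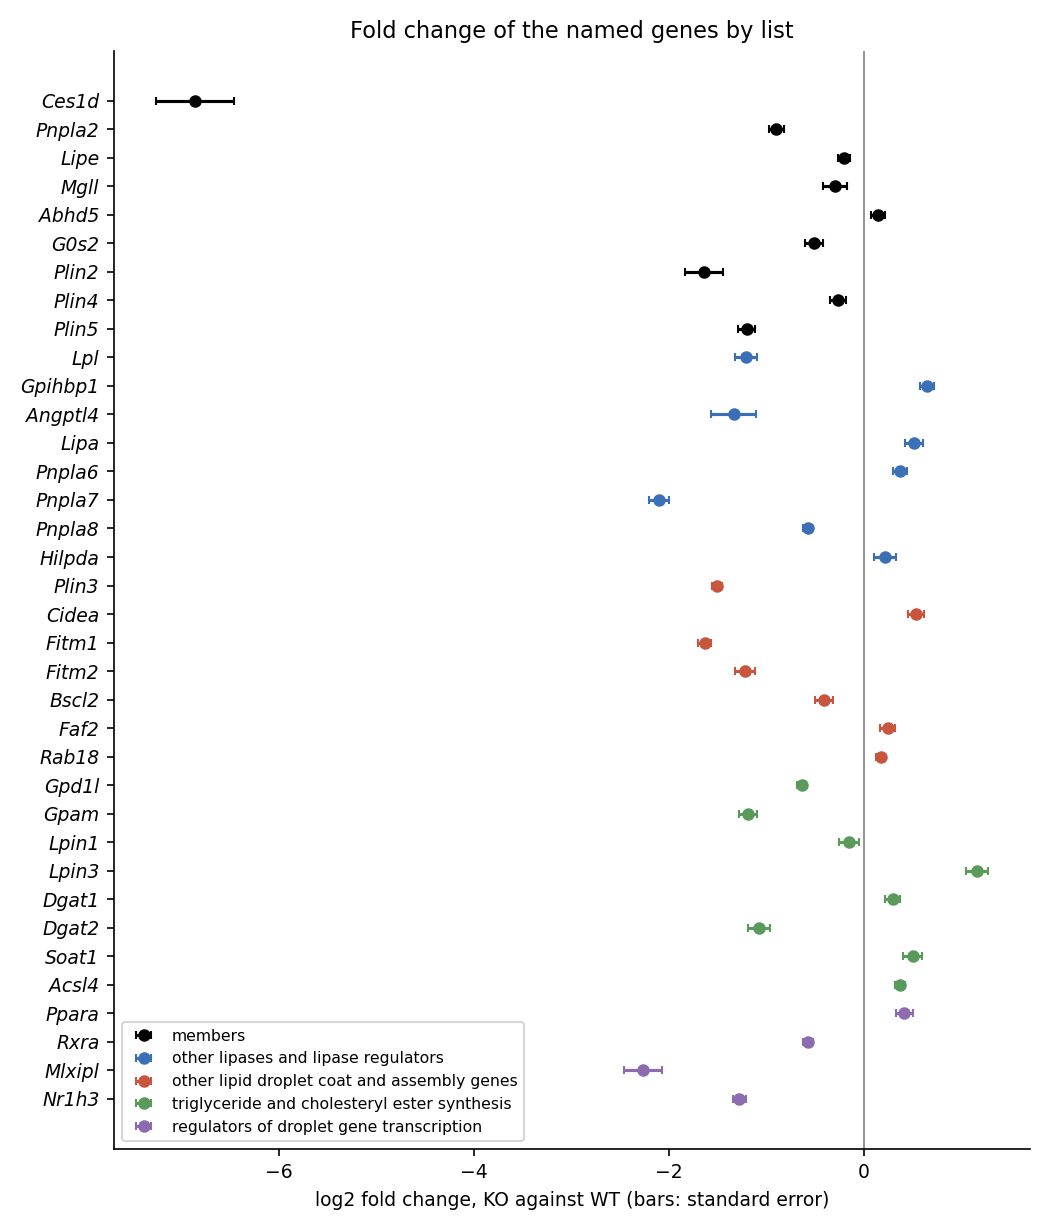
Log2 fold change, KO against WT, of the members and of other genes named from the lists, coloured by list. Each is a point with its standard error from the fit over all 17155 rows. Among the members, Ces1d stands at -6.86, Plin2, Plin5 and Pnpla2 between -1.63 and -0.90, and Abhd5 at 0.15 alone lies above 0.

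Abhd5 (CGI-58), the co-activator of Pnpla2, lies at chr9:128783234-128812627 on the plus strand and was at 54.5 to 66.5 CPM in WT (median 61.6) and 58.5 to 77.6 CPM in KO (median 66.8). The groups overlapped, and the log2 fold change of 0.15 (SE 0.07) was the only positive value among the members. G0s2, the inhibitor of Pnpla2, lies at chr1:206732076-206733132 on the minus strand and ranged from 28.5 to 39.4 CPM in WT (median 30.4) and from 17.9 to 25.4 CPM in KO (median 21.6). Its groups did not overlap, with a log2 fold change of -0.51 (SE 0.09). Rows of low level overlap those of Lipe, Mgll and Abhd5 (at most 4.54, 0.799 and 2.56 CPM). The row of G0s2 overlaps that of Lamb3 on the opposite strand, which averaged 12.5 CPM, and whether reads were counted by strand is not known, which leaves the value of G0s2 uncertain.

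Both partners were nearer to Pnpla2 in level in KO hearts. Per heart, the FPKM ratio of Abhd5 to Pnpla2 was 0.0663 to 0.0882 in WT (median 0.0820), whereas KO hearts had 0.145 to 0.203 (median 0.163). The ratio of G0s2 to Pnpla2 was 0.0596 to 0.0782 in WT (median 0.0695), whereas KO hearts had 0.0794 to 0.114 (median 0.0878). Neither ratio overlapped between groups, and the G0s2 ratio did so by a narrow margin. A transcript ratio says nothing of the ratio of the proteins.

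Among the perilipins, the members differed from each other in size of change. Plin2, which coats droplets in most tissues and follows the fat load of a cell, ranged from 158 to 308 CPM in WT (median 198) and from 54.5 to 98.7 CPM in KO (median 62.2), with a log2 fold change of -1.63 (SE 0.20). It varied widely within each group, with WT replicate 4 and KO replicate 3 highest, yet the groups did not overlap. Plin5, which tethers droplets to mitochondria and binds Pnpla2 and Abhd5, ranged from 204 to 246 CPM in WT (median 222) and from 78.0 to 121 CPM in KO (median 94.7), with a log2 fold change of -1.20 (SE 0.09). No KO heart came near the WT range of Plin5. Plin4, a perilipin with a long amphipathic repeat region, ranged from 80.9 to 104 CPM in WT (median 91.5) and from 64.7 to 88.5 CPM in KO (median 79.2), with a log2 fold change of -0.26 (SE 0.08) and overlapping groups.

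Plin4 and Plin5 are neighbours on the same strand of chromosome 17. In the C57BL/6NJ coordinates of the table they lie on the minus strand at chr17:60032403-60039984 and chr17:60041997-60047992, with 2012 bases between them. Their differences were nonetheless of different size. The bases before their RefSeq transcript starts, and before that of Plin2 (in the table at chr4:89706208-89739966, minus strand), are shown because PPAR:RXR receptor pairs, known regulators of perilipin genes, bind sites built from the hexamer AGGTCA. Each sequence is the 250 bases upstream of the start, 5′ to 3′ on the gene's strand, from RefSeq on GRCm38.p6, a build other than the table's. For a gene with several RefSeq starts, the start farthest upstream was used. Capitals mark AGGTCA on either strand, the opposite strand reading TGACCT. The windows are chr4:86670060-86670309 for Plin2, chr17:56117549-56117798 for Plin5 and chr17:56109783-56110032 for Plin4, all on the minus strand.
Plin2: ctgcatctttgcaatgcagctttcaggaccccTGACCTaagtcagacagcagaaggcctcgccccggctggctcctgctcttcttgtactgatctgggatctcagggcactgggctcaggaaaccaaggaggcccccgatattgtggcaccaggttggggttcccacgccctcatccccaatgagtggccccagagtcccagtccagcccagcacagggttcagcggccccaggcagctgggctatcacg
Plin5: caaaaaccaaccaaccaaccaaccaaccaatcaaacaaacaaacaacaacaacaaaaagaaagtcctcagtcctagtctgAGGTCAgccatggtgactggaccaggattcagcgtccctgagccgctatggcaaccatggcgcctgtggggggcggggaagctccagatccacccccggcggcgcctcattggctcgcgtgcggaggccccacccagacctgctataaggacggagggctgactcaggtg
Plin4: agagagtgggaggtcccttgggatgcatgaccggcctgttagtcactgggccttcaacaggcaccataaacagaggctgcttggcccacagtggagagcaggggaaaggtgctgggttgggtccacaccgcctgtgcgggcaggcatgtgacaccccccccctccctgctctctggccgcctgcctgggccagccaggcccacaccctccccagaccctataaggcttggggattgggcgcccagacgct

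The Plin2 window held AGGTCA on the opposite strand 218 bases before the start, the Plin5 window held it on the same strand 170 bases before, and the Plin4 window did not hold it. RefSeq windows were matched for 8 of the 9 members, Ces1d being the exception, and of their 11 windows 3 held the hexamer, the last being Abhd5 at 69 bases before the start on the opposite strand. Among all 32851 windows of this length 14.0% held it on either strand. The direct repeat of the hexamer with any 1 base between its copies stood in 0.0335% of all windows and in 0 of the 11. A match of letters is not a binding site, and nothing follows from its absence in these windows.

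Plin3, a perilipin of broad expression that is no member, completed the coat. It fell from 272 ± 5.51 CPM in WT to 95.7 ± 8.12 CPM in KO (SD, n = 6; log2 fold change -1.51, SE 0.06, adjusted p = 6.49e-12 by edgeR's quasi-likelihood test). Plin1, the perilipin of adipocytes, averaged 0.0273 CPM in WT and 0.0375 CPM in KO and did not pass the filter. The summed FPKM of Plin1 to Plin5 was 433 to 624 in WT and 165 to 237 in KO. Within that sum Plin4 made up 3.75% to 6.37% in WT and 8.75% to 13.2% in KO, without overlap. The share of Plin2 was 41.9% to 56.6% in WT and 35.0% to 46.5% in KO, and those of Plin3 and Plin5 overlapped as well.

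**Figure D3:**
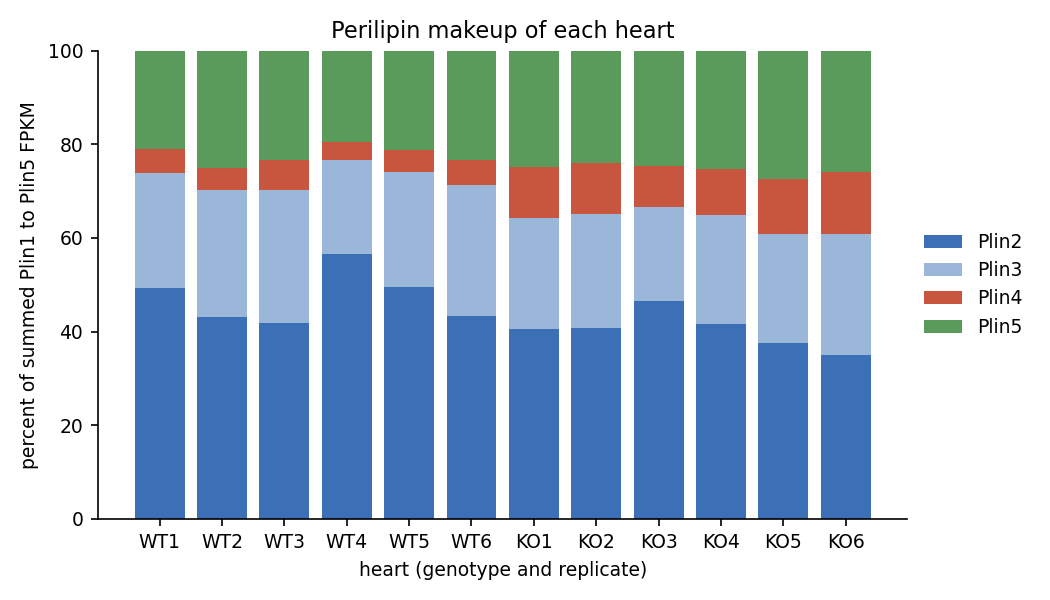
Share of each perilipin in the summed Plin1 to Plin5 FPKM of each heart, in percent, for 6 WT and 6 KO hearts (Plin1 is too low to be seen). The band of Plin4 is wider in every KO heart, at 8.75% or more, than in any WT heart, at 6.37% or less.

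Compared per length in WT, the members ranked from Pnpla2 (518 ± 30.4 FPKM, SD, n = 6) over Plin2 (242 ± 63.4), Ces1d (182 ± 22.5), Mgll (147 ± 8.77), Plin5 (111 ± 8.01), Lipe (65.4 ± 2.51), Abhd5 (41.3 ± 3.19) and G0s2 (36.0 ± 4.25 FPKM) to Plin4 (24.9 ± 1.99 FPKM). In this order Plin2 and Ces1d, Ces1d and Mgll, and Abhd5 and G0s2 overlapped over the 6 hearts. In KO, Pnpla2 was again first (278 ± 27.7 FPKM), followed by Mgll (120 ± 24.8 FPKM), and Ces1d was last (1.57 ± 1.43 FPKM). Between Mgll and Abhd5, and between G0s2 and Plin4, KO neighbours overlapped. The deposited FPKM of 6 members implies a shorter gene length than the length column of the table, for Plin2 861 against 1888 bases. With the length column, WT Plin5 and Plin2 ranked next after Pnpla2, at 111 ± 8.01 and 110 ± 28.9 on the FPKM scale, and Abhd5 ranked last.

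Members were also compared across hearts within a genotype, a comparison that the choice of members did not use. Deviations of log2 CPM from the genotype mean were correlated over 12 hearts, which share library and depth. Among the 36 pairs the median r was 0.06, and 19 were positive. The highest was Plin2 with Plin5, at r = 0.729 (Spearman's rho 0.608), with 0.795 within WT and 0.80 within KO. The lowest was Lipe with G0s2, at r = -0.611 (rho -0.615). Ces1d and Lipe had r = 0.671 (rho 0.594), with 0.712 within KO and -0.07 within WT. In KO the hearts with most Ces1d reads, replicates 4 and 5, were also those with most Lipe. With 6 hearts a group, such values are descriptive.

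**Figure D4:**
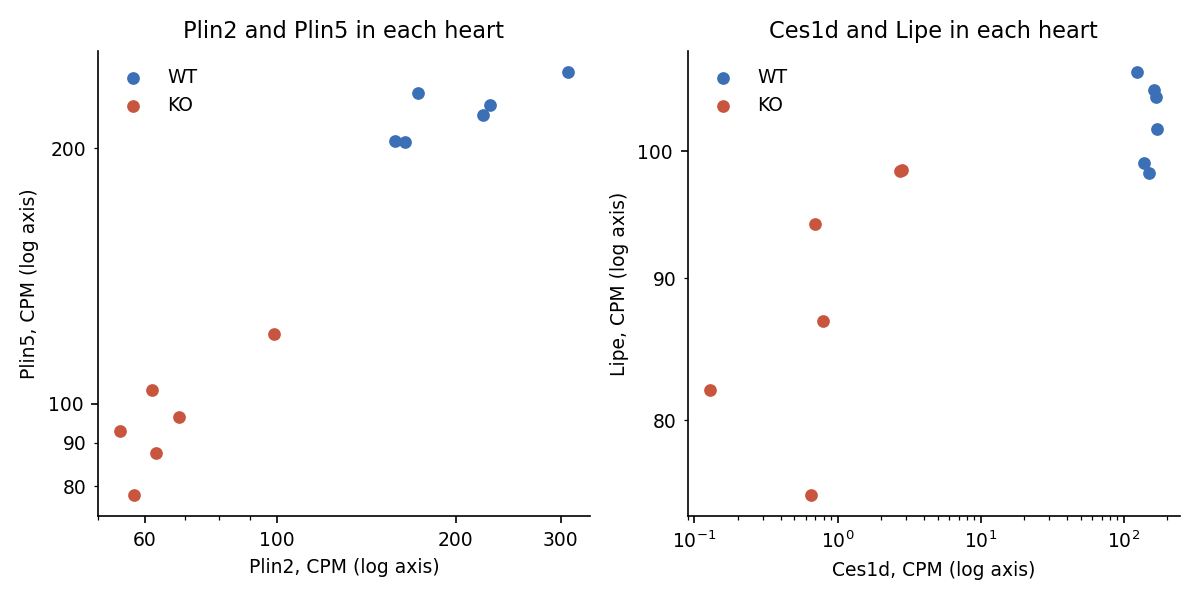
Plin2 against Plin5 (left) and Ces1d against Lipe (right) in each of 6 WT and 6 KO hearts, in CPM on log axes. WT replicate 4 and KO replicate 3 are the highest hearts of their group in both Plin2 and Plin5, and KO replicates 4 and 5 nearly coincide in Ces1d and Lipe.

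Across 11166 rows with a mean of at least 5 CPM, the 5 whose deviations were most like those of Ces1d were As3mt (r = 0.87, rho 0.811), Rasd1 (0.869, 0.531), Stoml1 (0.869, 0.811), Dach1 (0.865, 0.58) and Saal1 (0.858, 0.72). Lipe ranked 103 in this order. The other members ranked from 5475 (Pnpla2) to 10729 (Abhd5). Ces1d spread 21.8-fold over the KO hearts, on 4 to 86 reads, so these hearts weigh most in each r. The 5 genes were picked as the highest of 11166, and whether such picking alone gives values this high was not tested.

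Other lipases and lipase regulators, from a list of 30 names, all had a row. Of 24 that passed the filter, 7 rose, 10 fell and 7 were not called (median log2 fold change -0.02), where 25.6% of all rows rose and 25.5% fell, and 4 rose without WT replicate 4, WT replicate 5 or KO replicate 4. Lpl, the lipase that frees fatty acids from circulating lipoproteins, fell from 6578 ± 323 CPM in WT to 2855 ± 603 CPM in KO (SD, n = 6; log2 fold change -1.20, SE 0.11, adjusted p = 2.27e-07 by edgeR's quasi-likelihood test). Gpihbp1, the endothelial anchor of Lpl, rose from 186 ± 19.1 to 291 ± 26.2 CPM (log2 fold change 0.65, SE 0.07, adjusted p = 1.27e-06 by edgeR). Markers of endothelium summed to 1667 to 1890 CPM in WT and 1881 to 2244 CPM in KO, with 6 of 10 called higher, 2 lower and none at 0, and their part in the Gpihbp1 value was not tested. Angptl4, an inhibitor of Lpl, fell from 111 ± 19.9 to 43.8 ± 14.7 CPM (log2 fold change -1.33, SE 0.23).

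Intracellular lipases stood on that list too. Pnpla7, a lysophospholipase, fell from 101 ± 11.1 to 23.7 ± 3.72 CPM (log2 fold change -2.10, SE 0.10), and Pnpla8, a phospholipase A2 of mitochondria and peroxisomes, from 179 ± 10.2 to 120 ± 5.44 CPM (log2 fold change -0.58, SE 0.05). Pnpla6, a relative of Pnpla7, rose from 14.9 ± 1.25 to 19.3 ± 0.857 CPM. Lipa, the acid lipase of the lysosome, rose from 51.9 ± 4.85 to 74.0 ± 10.6 CPM (log2 fold change 0.51, SE 0.09). Macrophages, which express Lipa strongly, had marker sums that overlapped, at 246 to 346 CPM in WT and 251 to 397 CPM in KO. Of the 9 markers with a row, 1 (Mrc1) was called higher and 2 (Adgre1 and Csf1r) lower, where 25.6% and 25.5% of all rows were. Their part in the Lipa value was not tested. Hilpda, a small inhibitor of Pnpla2 induced by hypoxia, was not called (4.62 ± 0.630 CPM in WT and 5.37 ± 0.409 CPM in KO; log2 fold change 0.22, SE 0.12, adjusted p = 0.131 by edgeR).

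Droplet coat and assembly genes other than the members were taken from a list of names. Of these 30 names, 28 had a row and 22 passed the filter, of which 4 rose, 13 fell and 5 were not called (median log2 fold change -0.36, and of all rows 25.6% rose and 25.5% fell). Fitm1 and Fitm2, membrane proteins of the endoplasmic reticulum needed for droplet formation, fell from 94.1 ± 7.74 to 30.3 ± 2.82 CPM (log2 fold change -1.63, SE 0.07) and from 314 ± 36.7 to 135 ± 23.1 CPM (log2 fold change -1.22, SE 0.10). Bscl2 (seipin), which organises the site of droplet growth, fell with a log2 fold change of -0.41 (SE 0.09), with overlapping groups. Cidea, which promotes droplet fusion, rose from 40.5 ± 4.22 to 58.6 ± 7.35 CPM (log2 fold change 0.53, SE 0.08). Cidea is also an adipocyte marker and makes up most of the marker sum given above. Of the remaining risers named, Rab18 and Faf2 changed little, with log2 fold changes of 0.17 (SE 0.05) and 0.25 (SE 0.08). Cidec, a droplet fusion protein of adipocytes, averaged 0.065 CPM in WT and 0.0354 CPM in KO and was not tested.

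Among 26 names of triglyceride and cholesteryl ester synthesis, 24 had a row and 20 passed the filter, of which 6 rose, 8 fell and 6 were not called (median log2 fold change -0.11), against 25.6% and 25.5% of all rows. Gpam, the mitochondrial enzyme that attaches the first acyl chain to glycerol 3-phosphate, fell from 485 ± 37.3 to 213 ± 37.4 CPM (log2 fold change -1.19, SE 0.10). The enzymes of the last step moved in opposite directions, Dgat2 falling from 405 ± 30.2 to 192 ± 40.2 CPM (log2 fold change -1.08, SE 0.11) and Dgat1 rising from 20.8 ± 1.91 to 25.5 ± 2.85 CPM (log2 fold change 0.29, SE 0.08, adjusted p = 0.0052 by edgeR). Among phosphatidate phosphatases, Lpin3 rose from 7.98 ± 0.985 to 17.8 ± 3.08 CPM, and Lpin1 was not called (125 ± 13.2 and 113 ± 18.2 CPM, adjusted p = 0.251 by edgeR). Gpd1l, related to glycerol 3-phosphate dehydrogenase, fell from 125 ± 4.71 to 80.0 ± 5.63 CPM. Gpd1, on the same list, rose from 78.8 ± 22.2 to 140 ± 35.6 CPM (log2 fold change 0.83, SE 0.23), with overlapping groups. Acsl4, which activates long-chain fatty acids, rose from 20.8 ± 0.658 to 26.9 ± 0.956 CPM (log2 fold change 0.37, SE 0.05). Acsl1, on the same list and at a higher level, fell from 1153 ± 44.4 to 761 ± 128 CPM (log2 fold change -0.60, SE 0.09), without overlap. Soat1, which esterifies cholesterol, rose with a log2 fold change of 0.50 (SE 0.10).

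Transcription regulators of droplet genes, 20 tested of 21 names, had 1 called higher, 8 lower and 11 not called (median log2 fold change -0.09; all rows 25.6% higher and 25.5% lower), with 3 called higher without KO replicate 6. Ppara, the fatty acid receptor of oxidative tissue, was the 1 that rose, from 24.4 ± 2.81 to 32.6 ± 4.14 CPM (log2 fold change 0.41, SE 0.09, adjusted p = 0.000884 by edgeR), with overlapping groups. Its partner Rxra fell from 98.7 ± 3.75 to 66.4 ± 4.44 CPM (log2 fold change -0.57, SE 0.05). Mlxipl (ChREBP), a sugar-sensing factor, fell from 24.4 ± 2.65 to 5.08 ± 1.95 CPM (log2 fold change -2.26, SE 0.20), and Nr1h3 (LXR alpha), an oxysterol receptor, from 21.6 ± 0.989 to 8.89 ± 0.656 CPM (log2 fold change -1.28, SE 0.07). Apart from Acsl1 and Gpd1, 35 genes were named with values from the lists or for their likeness to Ces1d. Of these, 10 share bases with another row on either strand (Dach1, Pnpla7, Cidea, Fitm1, Fitm2, Bscl2, Lpin3, Soat1, Mlxipl and Nr1h3). Gpd1 shares bases with another row too, and Acsl1 does not. The values of genes that share bases are uncertain to the extent that reads of those rows were counted on them.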

How the data were processed

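Poly-A RNA of 12 ventricular wall samples was sequenced. The authors deposited raw counts per gene made with HTSeq, and the submitters' processing notes name HISAT2 2.0.5 and mm10, while the gene identifiers belong to C57BL/6NJ. The strand setting is not given in the sources used here. The authors also deposited FPKM per library, whose gene length falls short of the length column for 6 of the 9 members, equally in all libraries. Group means of FPKM and of scaled counts (a signal the authors deposited), and the authors' own test columns (log2 fold changes with their p-values), were not used.

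Counts were fitted in R 4.3.3 with edgeR 4.0.16 (filterByExpr, 17155 of 43686 rows kept; TMM; robust quasi-likelihood test; Benjamini-Hochberg adjustment over all rows kept; call at an adjusted p of 0.05). KO and WT samples, grouped by label, were compared with no covariate. Log2 CPM used a prior count of 2. On simulated counts (17041 genes) the procedure recovered 200 of 200 changed genes with 6 false calls. The simulation gave all genes the same dispersion and changed well-expressed genes by the same size, far fewer than were called here. It therefore does not cover smaller changes, genes of low level or uneven spread. Replicate pairs differed beyond sampling noise (lowest chi-square over degrees of freedom 7.41), and depth was 23747014 to 31393393 counts.

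Members and lists were chosen with earlier results of these data known. Genes named are all members, a set of lipase, droplet and synthesis genes, from each other list the 3 higher and 3 lower genes of smallest p with a mean of 1 CPM or more, and the 5 rows most like Ces1d. Ces2e, below that mean, and Acsl1 and Gpd1, outside that rule, were named after their values were seen. Alternatives were other normalizations, DESeq2 1.42.0, limma-voom (limma 3.58.1), other filters, leaving out unannotated rows or each library, a replicate block, limma on log2(FPKM + 0.1) and log2(FPKM + 1), CPM for ratios and, chosen after seeing the data, the length column. The shares of Pnpla2, Lipe, Mgll, Plin3, Plin4 and Plin5 were not among the ratios planned.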

Additional observations from a re-analysis of the deposited data

Results flagged for a closer look

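Among 72 groups of 6 hearts examined (36 genes in each genotype), 5 held a heart whose gap to the nearest other exceeded Dixon's 95% critical share of the range, where chance alone gives about 3.6. Mgll in KO replicate 6 was low at 129 CPM, the other KO hearts lying at 218 to 246 CPM. G0s2 in WT replicate 5 was high at 39.4 CPM, against 28.5 to 30.9 CPM. Plin2 in KO replicate 3 was high at 98.7 CPM, against 54.5 to 68.5 CPM, and that heart was also highest in Plin5. Fitm2 in WT replicate 4 was high at 385 CPM, against 278 to 311 CPM. Dgat1 in KO replicate 5 was high at 31.1 CPM, against 23.3 to 25.5 CPM. No cause was tested.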

How the results depend on the processing

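None of the log2 fold changes recomputed, those of 36 named genes, changed direction under any alternative, and the median of all rows ranged from -0.008 to 0.024 (log2). Mgll passed the threshold with upper quartile scaling, without robust dispersions, by DESeq2 and without KO replicate 1 or 6 (log2 fold changes -0.34 to -0.19). Abhd5 passed without KO replicate 4 (log2 fold change 0.187), so members called higher ranged from 0 to 1 when each library was left out. Other lipases called higher ranged from 4 to 8 then (4 without WT replicate 4, WT replicate 5 or KO replicate 4). Carboxylesterases called higher were 3 with no filter, 0 with at least 1 CPM in at least 6 libraries and 0 to 1 on leaving out a library (0 without KO replicate 4), and those called lower were 1 with no filter and 0 to 1 on leaving out a library. Regulators called higher were 2 without robust dispersions, with the 1 CPM filter, by DESeq2 and by limma-voom, and 1 to 3 on leaving out a library (3 without KO replicate 6). The cause of these shifts was not tested. Same-numbered KO and WT samples correlated by -0.162 to 0.024. These values show no pairing by number, but a pairing that left little shared signal would not be seen. With the replicate block, 8 members were called lower, Mgll among them (log2 fold change -0.32), and 2 regulators higher. Among the 36 genes recomputed, no call other than that of Mgll changed with the block. Ratios between genes depend on the length used: the median WT share of Plin2 was 46.3% in FPKM, 28.3% with the length column and 25.1% in CPM. Precision is limited by 6 hearts a group and, for Ces1d in KO, by 4 to 86 reads.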
